A study of Equus caballus with 22 samples.

Results

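GM2A encodes the GM2 activator protein, a small glycoprotein of the lysosome, and its transcript was followed in mares in the endometrium, the tissue that lines the uterus, early in pregnancy. Its probes were all probes whose accession in the scanner files is NM_001081912, the horse RefSeq transcript of GM2A. There was 1 such probe among 43603 on the array, which stands for 1 of the 675 genes that could be named, with 1 spot on each of 22 arrays. GM2A was chosen by measured values, namely its difference between pregnant and control endometrium at day 12, with the difference between the control samples of the 2 days also known. Its values in those comparisons, and in the others that share those arrays, are therefore given as a description with no test. The change at day 8 is the comparison that was tested. Its estimate uses no day 12 array, but its SE and p come from a fit that pools the spread of both days. Its 5 control arrays also enter the known difference between the control samples of the 2 days. The day 8 test is therefore not wholly independent of the choice.

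The GM2 activator binds gangliosides, which are sialic acid-bearing glycolipids of cell membranes, lifts the ganglioside GM2 out of the membrane and presents it to the lysosomal enzyme that degrades it. Loss of the human gene leads to storage of GM2 in neurons, in a form of GM2 gangliosidosis known as the AB variant. The protein also carries other lipids, and in human and mouse cells it has been linked to the loading of lipids onto CD1 molecules, which present lipid antigens. In the mare the early conceptus stays unattached in the uterine cavity for weeks and is fed by secretions of the endometrial glands, which are rich in lipid-carrying proteins such as uterocalin.

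Biopsies had been taken from warmblood mares at day 12 or day 8 of pregnancy, after the embryo had been flushed out, and from the same mares at the matching stage without pregnancy. Pregnant endometrium at day 12 came from 6 mares (numbers 1 to 6), and control endometrium at day 12 came from the same 6. Pregnant endometrium at day 8 came from 5 mares (numbers 1, 2, 4, 5 and 6), and control endometrium at day 8 came from the same 5. The labels give no drug or genotype for any group and do not say whether a number marks the same animal on both days. Each biopsy is a mixture of glandular and luminal epithelium, stroma, vessels and immune cells, so a higher level in more cells of a type cannot be told apart from a higher level per cell.

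RNA had been labelled with a single dye and hybridised to Agilent horse arrays, on which the brightness of a spot stands for the amount of its transcript. Levels are log2 intensities minus the log2 of the 75th percentile of the array, so a level of 0 is the brightness of that percentile. A change is the pregnant minus the control level of a mare, except where the 2 days are compared. The 75th percentile ranged from 577 to 1863 intensity units over the 22 arrays, 74.2% to 92.9% of spots were well above background, and no spot was saturated. Both arrays of every mare lay on 1 slide, but no slide or scan day held both days, so the stage of pregnancy or cycle and the array batch cannot be told apart in any comparison of the 2 days. At day 12 the changes of mare 3 over 31038 probes went against the mean of the other mares with a correlation of -0.15, while the other 5 mares had 0.10 to 0.60. As a check of the tissue, P19, the gene of uterocalin, was well above background on all 22 arrays, and its group means of 7.30, 7.37, 7.88 and 7.95 (pregnant and control at day 12, pregnant and control at day 8) lay far above the 75th percentile. The epithelial gene ESRP1 and the stromal genes DCN and LUM were likewise measured on every array. The other members of those marker lists had no probe that could be named here.

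GM2A was well above background on 22 of 22 arrays. Its processed intensity ran from 3748 to 23292 units in pregnant endometrium at day 12, against 639 to 3003 units in control endometrium at day 12. It ran from 402 to 1340 units in pregnant endometrium at day 8, against 294 to 948 units in control endometrium at day 8. The dimmest spot, a day 8 control, was still 12.0 times its local background, and the brightest, a day 12 pregnant sample, 1370 times. None of these values was therefore limited by background or by saturation.

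At day 12, GM2A was higher in pregnant than in control endometrium in all 6 mares, on average 4.28-fold. Its level in pregnant endometrium was 1.74 at the lowest, 2.58 at the median and 4.05 at the highest, with a mean of 2.73 ± 0.79 (SD, n = 6). In control endometrium it was -0.03 at the lowest, 0.69 at the median and 1.31 at the highest, with a mean of 0.63 ± 0.50 (SD, n = 6). Every pregnant sample lay above every control sample, also of other mares. A higher level without overlap between the groups was found for 0.233% of 38203 probes, and an adjusted p under 0.05 for 0.211% of 38461 probes with a higher and 0.0546% with a lower level. A higher level in all 6 mares was found for 2.25% of 38203 probes. This contrast picked the gene, so nothing is read from those shares.

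**Figure D1:**
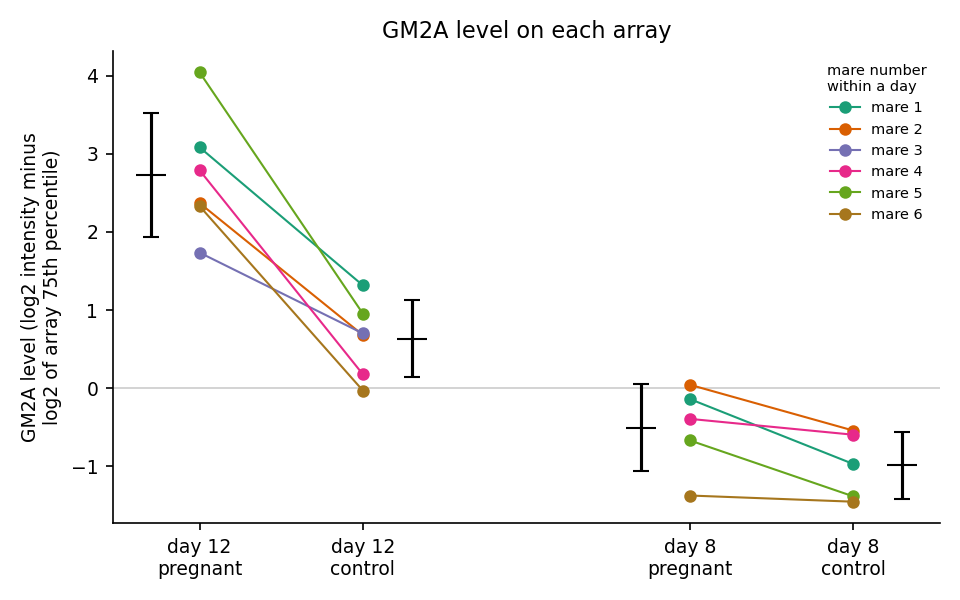
GM2A level on each of the 22 arrays (log2 intensity minus the log2 of the array's 75th percentile), by group from left to right: day 12 pregnant, day 12 control, day 8 pregnant, day 8 control. Lines join the samples of a mare within a day. The 6 day 12 pregnant samples, at 1.74 to 4.05, lie above all others, and the 2 groups of day 8 overlap.

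The size of the difference varied among the mares. Mare 5 had the largest, with a level of 4.05 in the pregnant and 0.95 in the control sample, which is 8.54-fold. Mares 4 and 6 followed with 6.14-fold and 5.15-fold, and had the 2 lowest control levels, 0.17 and -0.03. Mare 1 had levels of 3.09 in the pregnant and 1.31 in the control sample (3.41-fold), and mare 2 had 2.37 and 0.68 (3.23-fold). Mare 3, whose array-wide changes went against those of the others, had the smallest difference, 1.74 in the pregnant and 0.70 in the control sample (2.05-fold).

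The files give an error for each spot, which for GM2A comes to 0.20 log2 for the difference between 2 arrays. It was nearly the same in every mare and was not measured on replicate spots, since GM2A has 1 spot per array. All 6 day 12 differences were at least 5.08 times that error. The spread between mares, an SD of 0.74 around a mean change of 2.10, was larger than it too. In the fit across all probes the change was 2.10 ± 0.22 log2 (SE, 6 mares), beside a median of -0.02 over all probes. It was 2.31 ± 0.20 without mare 3 and 1.90 ± 0.21 without mare 5. GM2A stood at place 47 of 38461 probes by the size of its increase and at place 2 of the 609 genes that could be named and measured. This contrast picked the gene, so nothing is read from these places.

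At day 8, GM2A was higher in pregnant endometrium in 5 of 5 mares, but by 1.40-fold on average, and the difference did not pass the test. The levels in mares 1, 2, 4, 5 and 6 were -0.14, 0.04, -0.39, -0.67 and -1.38 in pregnant endometrium, with a mean of -0.51 ± 0.56 (SD, n = 5). In control endometrium of the same mares they were -0.97, -0.54, -0.60, -1.39 and -1.46, with a mean of -0.99 ± 0.43 (SD, n = 5). The groups overlapped, with pregnant levels from -1.38 to 0.04 and control levels from -1.46 to -0.54. Groups without overlap, higher in pregnancy, were found for 0.144% of 38313 probes.

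Within the mares the day 8 changes were 0.83 in mare 1, 0.72 in mare 5, 0.59 in mare 2, 0.20 in mare 4 and 0.08 in mare 6. The first 3 were 2.88 to 4.08 times the spot error of a difference, while that of mare 4 equalled about its spot error and that of mare 6 was below it. The fitted change was 0.48 ± 0.24 log2 (SE, 5 mares, 95% interval -0.05 to 1.02, limma with Benjamini-Hochberg adjustment over 38457 probes, unadjusted p = 0.0707, adjusted p = 0.834). An exact sign-flip permutation test over the 5 mares gave a two-sided p of 0.0625, the smallest that 5 mares allow, and was not adjusted. The interval reaches from just below no change to a doubling, with an SE that pools the spread of both days. From the day 8 arrays alone the change was 0.48 ± 0.14 log2 (SE, limma unadjusted p = 0.0111, adjusted p = 0.752). With the arrays of mare 3, who has none at day 8, left out it was 0.48 ± 0.20 (SE, limma unadjusted p = 0.0320, adjusted p = 0.696). In the other alternatives run the unadjusted limma p was above 0.05, from 0.0548 with a trended prior to 0.199 without mare 1.

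No probe passed the threshold at day 8, so percent called was 0, and the lowest adjusted p of any probe was 0.315. Unadjusted, 2243 probes (5.83%) had a p under 0.05. A higher level in all 5 mares, as seen for GM2A, was shared by 4.02% of 38313 probes. GM2A stood at place 498 of 38457 by the size of its increase.

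**Figure D2:**
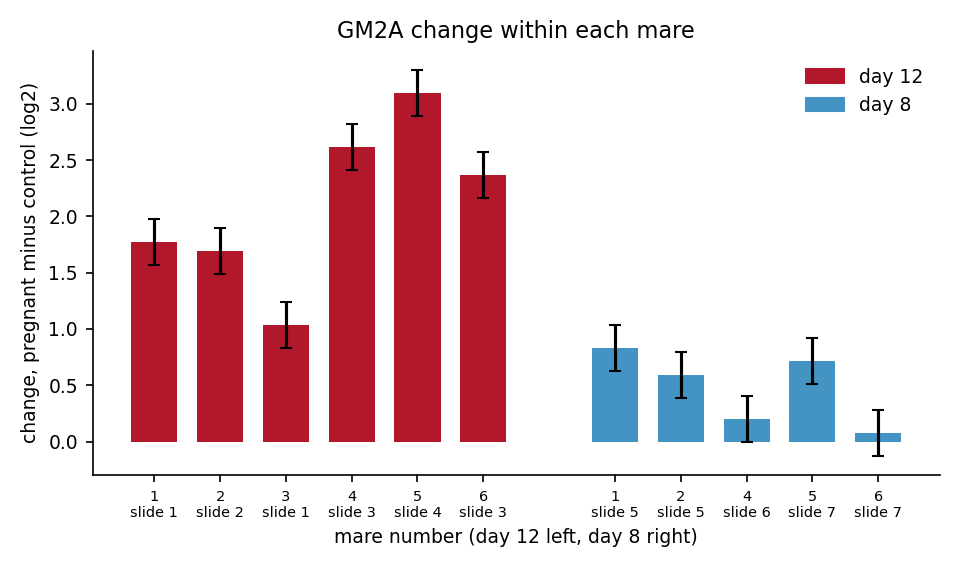
Change of GM2A within each mare (log2, pregnant minus control level), day 12 mares on the left and day 8 mares on the right. Bars start at 0 and error bars are the spot error of a difference, 0.20 log2. All 11 bars are above 0, and the smallest at day 12 (1.04, mare 3) is larger than the largest at day 8 (0.83, mare 1).

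The pregnancy change was larger at day 12 than at day 8 by 1.61 ± 0.33 log2 (SE, same fit), a description because it contains the day 12 contrast. The 6 changes at day 12 ran from 1.04 to 3.09 and the 5 at day 8 from 0.08 to 0.83, with no overlap. Such a separation in this direction was found for 0.514% of 38103 probes. The difference passed the threshold for 0.0104% of 38457 probes, 0.0078% with a larger and 0.0026% with a smaller change at day 12. By slide, with 1 or 2 mares on each, the mean change was 1.40, 1.69, 2.49 and 3.09 on the 4 slides of day 12. On the 3 slides of day 8 it was 0.71, 0.20 and 0.40. By scan day the mean change was 1.40, 2.39 and 2.49 at day 12 and 0.71 and 0.33 at day 8. Since the changes of single mares did not overlap, these means could not overlap either, and nothing further is read from them.

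GM2A was also higher at day 12 than at day 8 where there was no pregnancy. Control endometrium had levels of -0.03 to 1.31 at day 12 and of -1.46 to -0.54 at day 8, with no overlap. The difference was 1.62 ± 0.27 log2 (SE, 11 arrays), or 3.08-fold. This contrast too was known when GM2A was picked. A higher level without overlap was found for 2.79% of 38307 probes in that comparison, and a call for 2.47% of 38460 probes upward and 4.62% downward. GM2A stood at place 78 of 38460 probes and at place 2 of 609 named genes.

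In pregnant endometrium the difference between the days was 3.24 ± 0.38 log2 (SE, 11 arrays), or 9.42-fold, with levels of 1.74 to 4.05 at day 12 and of -1.38 to 0.04 at day 8. The groups did not overlap, as for 5.37% of 38205 probes, and 11.1% of 38459 probes were called upward and 13.1% downward. The 2 day comparisons use different arrays, but each shares its arrays with the pregnancy comparisons, so the 4 differences are not independent of each other. Slides, scan days and the version of the software that extracted the spot intensities all change with the day. Their part in the day differences cannot be told apart from that of the stage.

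The 4 groups thus had the order day 12 pregnant (2.73), day 12 control (0.63), day 8 pregnant (-0.51) and day 8 control (-0.99). Of these neighbours, the first 2 did not overlap. Day 12 control samples and day 8 pregnant samples overlapped narrowly, the lowest control at -0.03 and the highest pregnant at 0.04. The 2 day 8 groups overlapped, although within mares all 5 pregnant samples were the higher. This order of the 4 means was found for 10.5% of 38103 probes, so the order alone is common on these arrays.

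A higher level in pregnant endometrium in all 11 pairs was found for 16 of 38103 probes (0.042%). The 6 pairs of day 12 chose GM2A, so nothing is read from its place among them. The 16 probes stand for 15 accessions and, besides GM2A, 1 gene that could be named. That gene was TAGLN, which encodes transgelin, an actin-binding protein of smooth muscle, with changes of 0.90 at day 12 and 0.28 at day 8. Another was ENSECAT00000024225, with 1.75 at day 12 and 0.24 at day 8. These probes were chosen after their values were seen.

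The pathway around GM2A was covered thinly, because most probes could not be given a gene name. Of 238 genes on lists of ganglioside breakdown and synthesis, lysosomal proteins, lipid antigen presentation, lipid carriers, uterine secretions, steroid receptors and cell type markers, 31 had a named probe and 29 of those were measured. CD1D, which presents lipid antigens, and FABP2, an intestinal fatty acid-binding protein, had a named probe but did not pass the filter on dim signal. The 25 genes of ganglioside and sphingolipid synthesis had no named probe and are not analysed here.

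By its brightest probe, none of the 29 genes passed the threshold with pregnancy at day 12 (limma, adjusted p under 0.05). Of all 38461 probes 0.265% were called in either direction. Another probe of PTGDS was called, as given below. At an unadjusted p under 0.05 there were 8 of the 29, against 12.5% of all probes. At day 8 the counts were 0 of 29 at both thresholds, against 0% of all probes called and 5.83% at an unadjusted p under 0.05. At day 12, 18 of the 29 changes were above 0, with a median of 0.08 beside -0.02 over all probes. At day 8, 17 were above 0, with a median of 0.04 beside -0.01. When mare 3 was left out, TIMP1 passed at day 12, and 977 probes did in place of 102, against 22 to 133 without any other mare.

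Of 20 genes of lysosomal ganglioside and sphingolipid breakdown the 1 measured was SMPD1, acid sphingomyelinase, which splits sphingomyelin in the lysosome. Its mean level was 3.55 in pregnant and 3.47 in control endometrium at day 12, and 3.71 in pregnant and 3.68 in control endometrium at day 8. Its pregnancy change of 0.08 ± 0.12 log2 at day 12 (SE, adjusted p = 0.828) did not pass the limma test. All 4 group means of SMPD1 lay between 3.47 and 3.71, while those of GM2A lay between -0.99 and 2.73. GM2A was picked with differences between its groups known, so nothing is read from this contrast.

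Of 56 other lysosomal genes 2 were measured. IDUA, the iduronidase that degrades glycosaminoglycans, changed by -0.22 ± 0.12 log2 (SE, adjusted p = 0.500) at day 12, and LAPTM5, a lysosomal membrane protein of blood cells, by 0.08 ± 0.15 (SE, adjusted p = 0.864). At day 8 their changes were -0.04 and 0.10. The 3 lysosomal genes measured had day 12 changes of -0.22 to 0.08, beside 2.10 for GM2A, and most of the listed ones were not measured. GM2A was picked by its day 12 change, so nothing is read from this contrast.

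Among lipid carriers and lipases, 4 of 26 were measured, with a median change of 0.30 at day 12 and -0.09 at day 8. RBP4, the carrier of retinol, changed by 0.59 ± 0.26 at day 12 (SE, adjusted p = 0.381) and PLA2G4A, a cytosolic phospholipase A2 that releases arachidonic acid, by 0.39 ± 0.21 (SE, adjusted p = 0.483). STAR, which moves cholesterol into mitochondria, had 0.21, and PLA2G2A, a secreted phospholipase A2, had -0.14.

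Of 20 genes for secreted proteins of uterine fluid 8 were measured, with a median change of 0.25 at day 12 and 0.04 at day 8. The largest value was that of TIMP1, an inhibitor of matrix metalloproteinases, at 0.60 ± 0.15 (SE, adjusted p = 0.117) at day 12. The growth factor IGF2 had 0.48, the chaperone CLU (clusterin) 0.46 and P19 -0.07. PTGDS, a lipocalin that makes prostaglandin D, had -0.27 ± 0.08 (SE, adjusted p = 0.203) by its brightest probe, while another of its probes was called with -0.39, so its probes disagreed about the threshold. Of 10 steroid receptor genes 4 were measured, among them ESR1, the estrogen receptor alpha, with -0.18, PGRMC1, a membrane component linked to progesterone binding, with -0.23, and the nuclear receptors NR5A1 with -0.16 and NR5A2 with 0.28 at day 12.

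**Figure D3:**
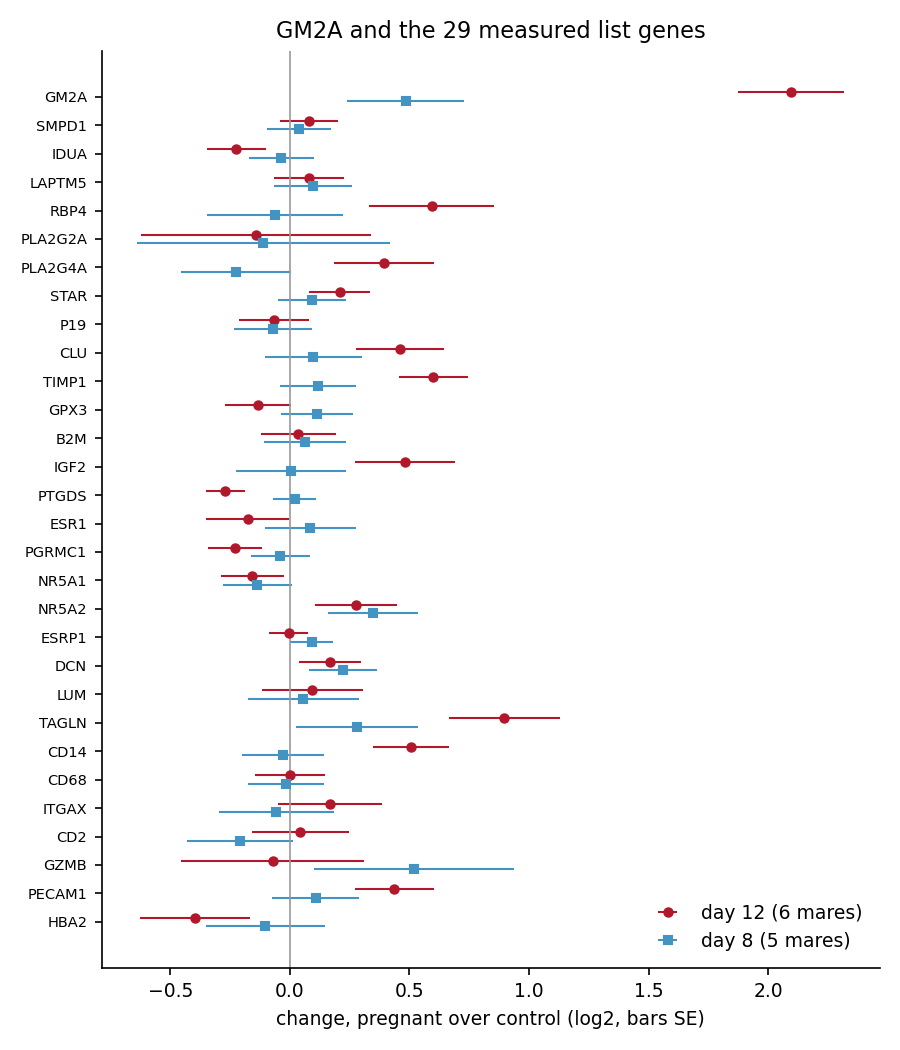
Change with pregnancy (log2, pregnant over control, bars are SE) of GM2A and the 29 measured list genes, at day 12 and day 8. GM2A at day 12 (2.10) lies far to the right of all 29, whose largest value is that of TAGLN (0.90). GM2A was picked by that change, so nothing is read from its place.

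Between the days more of the 29 genes differed. In control endometrium, by the brightest probe of each gene, 2 were higher at day 12 than at day 8 and none was lower, against 7.09% of 38460 probes called. They were RBP4, at 1.88 ± 0.49 (SE, limma adjusted p = 0.0432), and NR5A2, a nuclear receptor, at 0.94 ± 0.26 (SE, adjusted p = 0.0498). Neither passed when any 1 mare number was left out, or with slide or scan day as a random block. RBP4 was called by 2 of its 4 probes and NR5A2 by 1 of 2. Genes not called by their brightest probe had other probes called, namely GPX3 (2 of 6, higher), PLA2G2A (3 of 5, lower) and PGRMC1 (1 of 2, lower). In pregnant endometrium 12 of the 29 differed, 6 in each direction, against 24.3% of 38459 probes called. RBP4 rose most, by 2.53 ± 0.22 (SE, adjusted p = 0.000106), with CD14, the monocyte receptor for bacterial lipopolysaccharide, at 1.01 ± 0.15 and PECAM1, an endothelial adhesion molecule, at 0.92 ± 0.19. CLU, NR5A2 and TAGLN also rose, by 0.63 to 0.87. PLA2G2A fell most, by 1.39 ± 0.40 (SE, adjusted p = 0.0278), and ESR1, IDUA, LUM, P19 and PTGDS fell by 0.56 to 0.94. For ESR1 and LUM only 1 probe each was called. PGRMC1 and PLA2G4A were not called by their brightest probe, but 1 other probe of each was. The count was 4 without mare 4, 7 without mare 5 and 5 without mare 6. Over all probes 5478, 5649 and 5645 were then called, in place of 9332. The list count was 4 with scan day as a random block and 7 with slide as one, where 3433 and 6486 of all probes were called.

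Markers of cell types were read beside GM2A, summed per array as intensity relative to the 75th percentile. GM2A is expressed in macrophages among other cells. The 4 macrophage markers measured of 11 listed (CD14, CD68, ITGAX and LAPTM5) summed to 9.42 to 12.3 in pregnant and 6.94 to 12.0 in control endometrium at day 12. At day 8 they summed to 9.13 to 12.2 in pregnant and 7.94 to 12.1 in control endometrium. The groups overlapped on both days, but the sum is mostly LAPTM5 (mean level 2.95 in pregnant and 2.87 in control endometrium at day 12) and CD14 (1.47 and 0.96), since CD68 (-2.94 in both) and ITGAX (-5.27 and -5.44) were far dimmer. None of the 4 passed the threshold with pregnancy on either day. CD68, a lysosomal glycoprotein of macrophages, changed by 0.00 ± 0.15 log2 at day 12 (SE, adjusted p = 0.999), and CD14 by 0.51 ± 0.16 (SE, adjusted p = 0.214).

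Other cell types were covered by 1 or 2 genes each. The smooth muscle marker TAGLN, 1 of 5 listed, was at 0.371 to 0.787 in pregnant and 0.139 to 0.473 in control endometrium at day 12, and changed by 0.90 ± 0.23 (SE, adjusted p = 0.139). The endothelial marker PECAM1, 1 of 5, was at 1.42 to 2.85 in pregnant and 0.914 to 2.10 in control endometrium at day 12. The epithelial marker ESRP1, 1 of 10, was at 5.53 to 8.69 in pregnant and 5.68 to 8.62 in control endometrium. The stromal markers DCN and LUM, 2 of 8, summed to 12.7 to 22.04 in pregnant and 13.9 to 19.2 in control endometrium. The T and NK cell markers CD2 and GZMB, 2 of 11, summed to 1.80 to 18.5 in pregnant and 3.62 to 17.5 in control endometrium. The red cell marker HBA2, 1 of 5, was at 0.131 to 0.348 in pregnant and 0.147 to 0.542 in control endometrium. No listed marker of neutrophils or B cells had a named probe. The part of these cell types in the difference of GM2A was not tested.

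The genes whose levels followed those of GM2A most closely over the 22 arrays were found by the root mean square difference between the log2 levels, each centred on its own mean. Its median was 1.68 log2 over 599 named genes. Among the nearest 10 were RBP4 (0.85), PRNP (1.00), ABCC1 (1.02), CDH13 (1.08) and, at up to 1.18, QKI, RGS2, PRKAB2, DPRX and SPI2. The points share arrays, slides and the split by day, which all of these profiles follow in part. RBP4, the nearest, was close to GM2A in the day difference (controls 1.88, against 1.62 for GM2A) but not in the pregnancy change at day 12 (0.59, against 2.10). In mare 5 RBP4 was lower in the pregnant sample (4.40) than in the control sample (5.01), where GM2A had its largest pregnancy difference.

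By the 11 changes within mares, a measure added after the data were seen, 3 of the 10 nearest genes were shared, among them ABCC1, which encodes an exporter of glutathione conjugates, and CDH13, an anchored cadherin. Their day 12 changes were 0.68 and 1.07, and their day 8 changes -0.12 and 0.22.

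Among 21523 accessions without a gene name, with a median difference of 1.62 log2, 1 lay far closer than any named gene. DN508420, measured by 1 probe well above background on all 22 arrays, differed from GM2A by 0.34 log2 over the levels and by 0.31 over the changes. The next 4 were ENSECAT00000021769 (0.69), ENSECAT00000014465 (0.70), ENSECAT00000024225 (0.71) and ENSECAT00000018086 (0.74). The files and the reference table give DN508420 no gene, and whether its probe lies in the GM2A transcript was not tested.

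DN508420 averaged -2.35 ± 0.85 in pregnant and -4.19 ± 0.41 in control endometrium at day 12 (SD, n = 6 each). At day 8 it averaged -5.08 ± 0.43 in pregnant and -5.36 ± 0.11 in control endometrium (SD, n = 5 each). Its day 12 change of 1.85 and day 8 change of 0.28 stood beside 2.10 and 0.48 for GM2A. At day 12 it changed most in mare 5 (2.74) and least in mare 3 (0.83), as GM2A did. DN508420 was chosen as the accession closest to GM2A over these same levels, so nothing further is read from this likeness. At day 8 it was higher in pregnant endometrium in 4 of 5 mares, with -0.42 in mare 6, the mare in which GM2A changed least. The levels of DN508420 in mare 6, -5.76 in the pregnant and -5.34 in the control sample, were far dimmer than those of GM2A (-1.38 and -1.46).

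**Figure D4:**
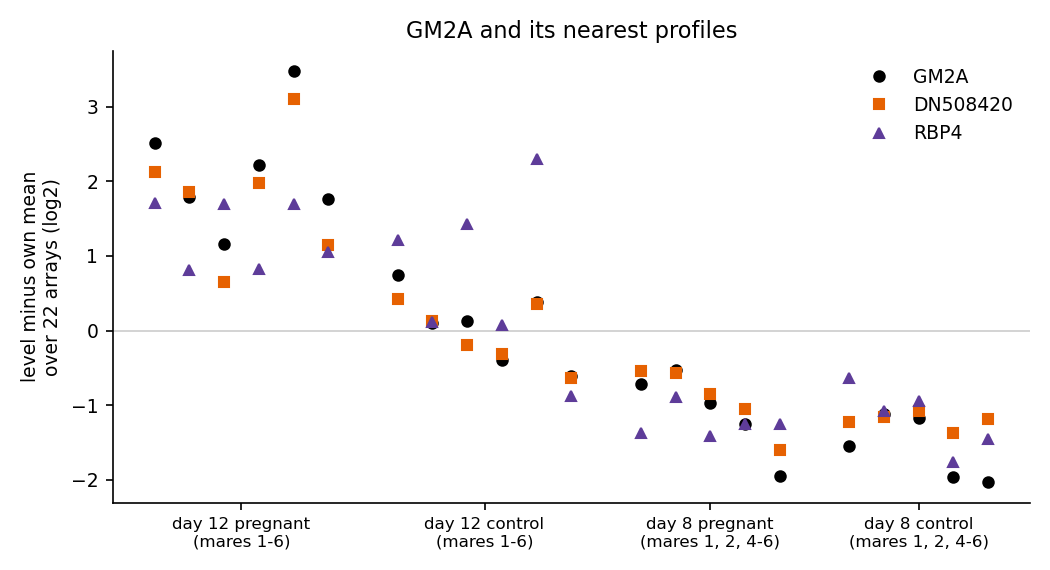
Level minus the probe's own mean over the 22 arrays (log2) of GM2A, DN508420 and RBP4, arrays in groups from left to right: day 12 pregnant, day 12 control, day 8 pregnant, day 8 control. DN508420 lies close to GM2A in most samples (0.34 log2 root mean square difference), but less so in the day 8 control samples of mares 5 and 6. RBP4 (0.85) lies apart from GM2A in most day 12 samples.

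In the horse assembly TB-T2T, GM2A lies between SLC36A3 and CCDC69 in gene order. Of the 5 genes on either side only SPARC, 5 genes away on one side, and GPX3, 4 genes away on the other, had named probes. SPARC, a collagen-binding matrix protein, changed by 0.21 to 0.27 at day 12 over its 8 probes and by 0.26 to 0.35 at day 8. GPX3, a secreted glutathione peroxidase, changed by -0.23 to -0.13 at day 12 over its 6 probes and by -0.15 to 0.11 at day 8. No probe of either passed the threshold at day 12, where GM2A, picked by that change, had 2.10.

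The GM2A values moved little where the processing could move them. Its day 12 change was 2.03 to 2.16 over 10 other settings and 1.90 to 2.31 when 1 mare number was left out. Of those settings, only the other background correction and scaling and a value table deposited by the authors could move the pregnancy changes. The block, the filter, the prior and fitting 1 day alone could not. The day 8 change of GM2A was 0.44 to 0.51 over the other settings and 0.40 to 0.58 with 1 mare left out, and its limma adjusted p was 0.696 to 1.00 throughout.

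**Figure D5:**
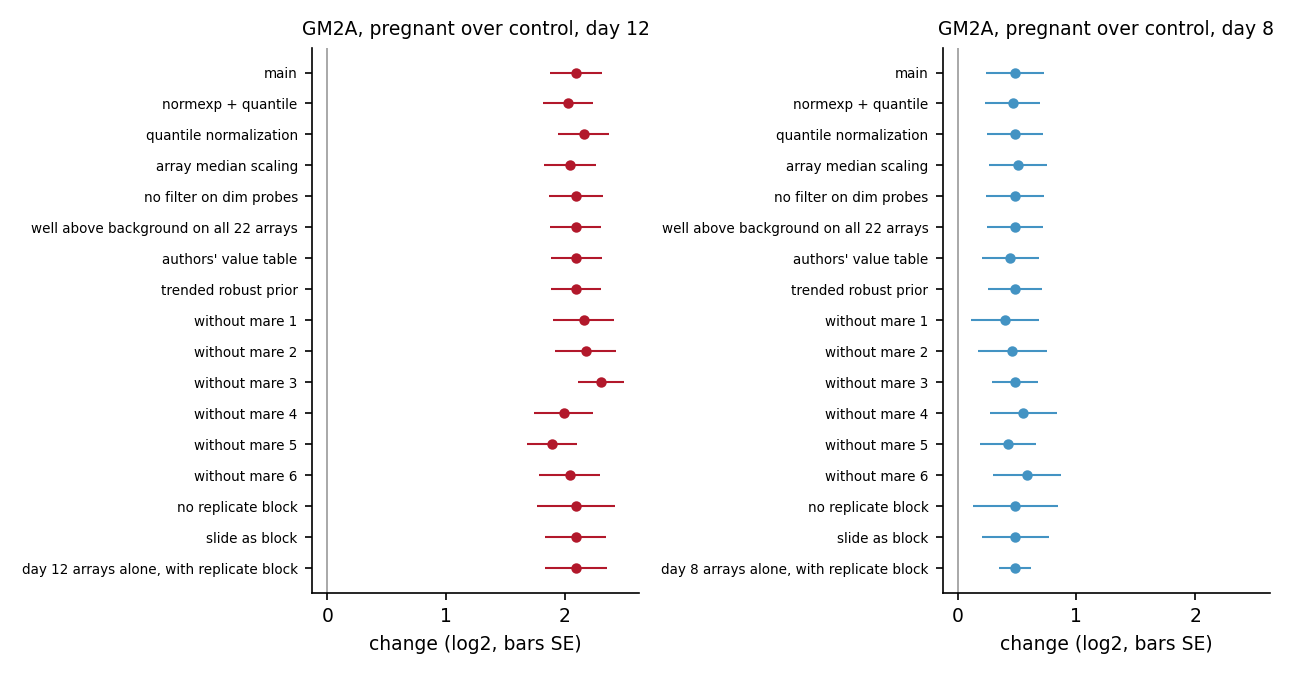
Change of GM2A with pregnancy (log2, bars are SE) under each setting of the processing, at day 12 on the left and day 8 on the right; the top row is the analysis reported and "without mare" leaves out the arrays of that mare number. Day 12 values stay between 1.90 and 2.31 and day 8 values between 0.40 and 0.58. Settings that alter only the block, the filter, the prior or the days fitted cannot move the points, only the bars.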

How the data were processed

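The 22 single-dye arrays are deposited as scanner output with spot intensities. The submitters' processing notes name Agilent Feature Extraction 10.5.1.1. The file headers give that version for the day 12 arrays and 10.7.3.1 for the day 8 arrays. Per the file headers, background and spatial trend were removed from the processed intensity, with no scaling of one array to another. A value table deposited by the authors, read as log2, served as an alternative only.

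The log2 of the processed intensity was taken minus that of the array's 75th percentile over 43803 non-control spots, outlier spots (3 to 152 per array) were dropped, and spots of a probe were averaged. The 38461 probes kept were well above background on 5 or more arrays. Differences were fitted with limma 3.58.1 in R 4.3.3 (lmFit, eBayes, two-sided, Benjamini-Hochberg, threshold 0.05), with mares of a day as blocks; days were compared over 11 arrays per pregnancy state without covariates. The script was tested on simulated data. Pairing within a day comes from the labels; same-mare deviations correlated at 0.289 to 0.817. The number of arrays limits precision.

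Normexp (offset 50) used the median spot signal, since the files used here hold no mean signal. Names came from RefSeq accessions of assembly TB-T2T (1394 probes with 1 symbol, 1 with several, 42208 with none). Named are GM2A, the measured list members by their brightest probe, the 10 named genes and 5 other accessions most like GM2A, and its gene neighbours; 1 gene among the 10 is not reported here. GM2A and the lists were chosen with earlier results of these data known. No sequence is shown, because none for the probe, transcript or protein was used here.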

Additional observations from a re-analysis of the deposited data

Results flagged for a closer look

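In 5 of 74 sets of 4 to 10 values tested, 1 sample stood far from the others, measured as its gap to the nearest value over the whole range; chance alone flags about 1 in 20. None was a GM2A value. At day 12 mare 3 stood apart in 3 genes: ESRP1 (gap 0.638 of the range) changed by 0.36 there and by -0.19 to 0.01 in the other mares, LUM (0.655) by -1.11 against 0.07 to 0.69, and HBA2 (0.705) by -1.95 against -0.32 to 0.36. At day 8, SMPD1 (0.761) changed by -0.22 in mare 6 and by 0.06 to 0.15 in the others. PTGDS at day 8 (0.824) changed by -0.26 in mare 5 and by 0.06 to 0.12 in the others.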

How the results depend on the processing

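All 5 GM2A differences kept their direction, and the day 8 change its side of the threshold, under all alternatives run: 16 each, and 15 for the difference between the pregnancy changes. That difference was 1.44 to 1.82 with 1 mare number left out and 1.54 to 1.68 otherwise. The day difference was 1.46 to 1.81 and 1.42 to 1.68 in control endometrium, and 2.93 to 3.44 and 2.98 to 3.43 in pregnant endometrium. With no replicate block, the day 12 change was 2.10 ± 0.33 and the day 8 change 0.48 ± 0.36 (SE). The block, the filter and the prior could not move these pregnancy changes, only their SE and p. Array median scaling moved the median of all probes in the pregnant day comparison to -0.15, where GM2A had 3.11. Whether the numbers pair the 2 days is uncertain: same-numbered arrays correlated at -0.15 to 0.34, below 0 only in mare 2, and best with their own number in 2 of 5 control and 2 of 5 pregnant arrays. With that replicate block, GM2A had 1.61 in control and 3.43 in pregnant endometrium.

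Counts of list genes moved more, and the cause was not tested. At day 12 the count was 0 to 1 with 1 mare left out. In control endometrium, 2 in the analysis reported, it was 4 after quantile normalization, 1 in the authors' deposited table, and 0 with no filter on dim probes, with the replicate block, with slide or scan day as a random block, and with any mare left out (0 to 0). Calls over all probes moved there too, from 2727 as reported to 4458 after quantile normalization, 282 in the authors' deposited table and 2035 with no filter. They numbered 31 with the replicate block, 772 with slides and 211 with scan days as random blocks, and 347 to 2046 with 1 mare left out. In pregnant endometrium, 12 as reported, the count of list genes was 1 in the authors' deposited table, 6 with the replicate block, 7 with slides and 4 with scan days as random blocks, and 4 to 11 with 1 mare left out. Calls over all probes there numbered 9332 as reported, 836 in the authors' deposited table and 5094 with the replicate block. With slides and scan days as random blocks they numbered 6486 and 3433, and with 1 mare left out 5478 to 8832. All probes past the threshold at day 12 numbered 102, against 226 with normexp, 218 when well above background on all arrays, 303 in the authors' deposited table, 287 with a trended prior, 41 with no replicate block, 9 from day 12 arrays alone, 22, 31, 47, 133 and 28 without mares 1, 2, 4, 5 and 6, and 977 without mare 3. Of the 10 genes most like GM2A, 6 were shared by Pearson correlation and 3 by changes within mares, a measure added after seeing the data. Averaging all GM2A probes gives no other value, since there is 1.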
